A study of Mus musculus with 26 samples.

Results

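Foxl2, Irx3, Irx5, Runx1, Msx1 and Lhx2 are 6 transcription factor genes of the fetal ovary, and their levels were measured here in XY gonads. They are grouped here as pre-granulosa factors, after pre-granulosa cells, the supporting cells of the developing ovary. Bulk tissue does not show which cells expressed them. They were chosen by name, through the gene identifiers paired with symbols in the deposited files, and make up 6 of the 57186 genes in the count table of WT and all deletions and 6 of the 31053 genes in the Meis1 count table. All 6 passed the filter on low counts in both tables. Poly(A) RNA of gonads dissected from XY mouse embryos at E13.5 was sequenced from 26 samples in 6 groups, and every sample is XY by its label. The groups were WT (n = 3), the Fgf9 genotypes Δ306 (n = 3), Δ225 (n = 6), Δ104 (n = 4) and Δ93 (n = 6), each named for a deletion, and Meis1 KO (n = 4). The sources used here give no deletion boundaries, strain, zygosity, litters or Cre driver, so each group is known only by its genotype name. Most labels number biological replicates, but none says which animals were pooled, so p-values measure the spread between these samples.

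In the embryonic gonad, supporting cells become Sertoli cells in XY embryos and pre-granulosa cells in XX embryos. Sry and Sox9 start the Sertoli route, and Fgf9, a secreted growth factor, supports it and opposes Wnt4. Wnt4 and Rspo1 signal through β-catenin in the ovary, where Foxl2, a forkhead factor that maintains granulosa identity, acts with Runx1, a RUNX factor that binds DNA with its partner Cbfb. Irx3 and Irx5 are neighbouring Iroquois homeobox genes needed for normal contact between granulosa cells and oocytes. Msx1 is a homeobox factor linked, with Msx2, to meiotic entry of fetal ovarian germ cells. Lhx2 is a LIM-homeobox factor expressed in the fetal ovary.

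In GENCODE M21 on GRCm38, Foxl2 (ENSMUSG00000050397) is a gene of 1 exon on chromosome 9, from 98955288 to 98958543, plus strand. Irx3 (ENSMUSG00000031734) runs from 91798525 to 91802067 on the minus strand of chromosome 8. Irx5 (ENSMUSG00000031737) runs from 92357625 to 92376286 on the plus strand of chromosome 8. Runx1 (ENSMUSG00000022952) spans 92601466 to 92826149 on the minus strand of chromosome 16 and is by far the longest of the 6. Msx1 (ENSMUSG00000048450) lies at 37820485 to 37824583 on the minus strand of chromosome 5, and Lhx2 (ENSMUSG00000000247) at 38339281 to 38369733 on the plus strand of chromosome 2. The antisense gene Foxl2os meets Foxl2 at its start, and Irx3os overlaps Irx3. The library kit marks the strand, but the sources used here do not say whether counting used it, so reads of Foxl2 and Foxl2os where they overlap, and of Irx3 and Irx3os, cannot be told apart.

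RefSeq's promoter table (GRCm38.p6) held 7 entries for 5 of the 6 genes, Irx5 having none, and the 250 bases before each start were searched on both strands. They held no match to TGACAG (MEIS, in 15.9% of 32851 promoters), TGTGGT (RUNX, 14.0%), GTAAACA (forkhead, 3.17%), AGATAA (a site of Gata factors, 9.99%), AAGGTCA (NR5A1, 4.08%), CTTTGA (TCF/LEF, 13.8%), TAATTA (homeobox, 4.84%) or ACATGT (IRX, 4.58%). The general promoter motifs CCAAT (in 33.8% of promoters) and GGGCGG (the GC box, 32.7%) were added after that search. Foxl2 had 2 GC boxes and no CCAAT box, and the Irx3 window had neither. The windows of Foxl2 and Irx3 lie inside exons of GENCODE M21. Only the 3 windows with no base in any GENCODE exon are shown. They lie at chr16:92697330-92697579 (minus strand, the second RefSeq start of Runx1), chr5:37824586-37824835 (minus strand, Msx1) and chr2:38339031-38339280 (plus strand, the first RefSeq start of Lhx2). Each is written 5′ to 3′, with capitals for CCAAT and GGGCGG on either strand.
Runx1: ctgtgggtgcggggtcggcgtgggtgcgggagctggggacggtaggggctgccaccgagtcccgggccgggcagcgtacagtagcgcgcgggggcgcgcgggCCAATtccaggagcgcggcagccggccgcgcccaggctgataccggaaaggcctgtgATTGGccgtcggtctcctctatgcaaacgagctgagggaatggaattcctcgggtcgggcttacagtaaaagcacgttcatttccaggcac
Msx1: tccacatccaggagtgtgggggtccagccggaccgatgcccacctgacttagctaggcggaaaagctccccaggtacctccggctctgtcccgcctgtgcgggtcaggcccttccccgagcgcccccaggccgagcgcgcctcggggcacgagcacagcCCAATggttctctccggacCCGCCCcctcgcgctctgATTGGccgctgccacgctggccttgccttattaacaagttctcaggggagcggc
Lhx2: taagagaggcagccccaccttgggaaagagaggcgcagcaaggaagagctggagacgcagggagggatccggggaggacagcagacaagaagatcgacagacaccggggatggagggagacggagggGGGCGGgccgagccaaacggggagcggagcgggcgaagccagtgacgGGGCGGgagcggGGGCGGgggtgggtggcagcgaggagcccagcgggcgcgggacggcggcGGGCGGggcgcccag
Runx1 has 2 CCAAT boxes, Msx1 has 2 CCAAT boxes and 1 GC box, and Lhx2 has 4 GC boxes. A match describes letters in a window and is not a binding site.

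Total counts were 11.6 to 53.4 M per library in the deletion table and 35.5 to 51.7 M in the Meis1 table. Levels are CPM, the share of each gene in a library's counts, with library size scaled by TMM, a correction for composition. Replicate libraries differed from one another beyond counting error in all 51 pairs. Fgf9 itself lay between 9.21 and 9.85 CPM in WT, 2.17 and 2.94 in Δ306, 3.69 and 16.5 in Δ225, 2.72 and 6.98 in Δ104, and 2.30 and 4.75 in Δ93. WT and Δ306 carry the same processing notes, while the other groups carry other, shorter ones, so for the other groups genotype and processing cannot be told apart.

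Some libraries stood apart. WT replicate 1 had 4.27 CPM of the germ cell gene Ddx4, against 81.3 and 139 in the other WT libraries, and 7.06 CPM of the mesonephric gene Pax2, against 0.777 and 1.45. The summed level of 4 Y-linked genes (Ddx3y, Eif2s3y, Kdm5d and Uty, in CPM of the unscaled library total) was 30.1 to 73.5 CPM in WT, 0.147 to 12.4 in Δ306, 0.192 to 20.3 in Δ225, 1.89 to 35.8 in Δ104 and 0.0258 to 6.78 in Δ93. It fell under 0.1 times that of the lowest WT library in 7 of the 22 libraries, namely Δ306 replicate 3, Δ225 replicate 4, Δ104 replicate 3 and Δ93 replicates 3, 4, 5 and 6. Xist, which is expressed from an inactive X, was at 0.0562 to 0.183 CPM in WT on the same scale. Its highest level, 6.26 CPM, was in Δ93 replicate 4, which also had the lowest Y-linked sum, 0.0258 CPM. The next highest, 3.09 CPM, was in Δ225 replicate 2, which had 20.3 CPM of Y-linked genes. Each comparison of the deletions is therefore also given without those 7 libraries. This does not level the Y-linked genes with WT. Apart from Δ104 replicate 4, the deletion libraries kept had 4.02 to 20.3 CPM, still under every WT library.

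The 4 deletions asked how loss of sequence at Fgf9 changes the XY gonad. All 6 genes rose in Δ306 and in Δ93, none passed the test in Δ225, and in Δ104 the libraries ran from WT levels to the levels of Δ306. In Meis1 KO, Foxl2 alone of the 6 rose, to a level far below that of Δ306. The mean order was Δ93, Δ306, Δ104, Δ225 and WT for Foxl2, and Δ93, Δ306, Δ104, WT and Δ225 for Irx3, Irx5, Msx1 and Lhx2. For Runx1 it was Δ93, Δ104, Δ306, Δ225 and WT. In these orders the neighbours Δ93, Δ306 and Δ104 were not called different for any of the 6 genes, and neither were Δ225 and WT.

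**Figure D1:**
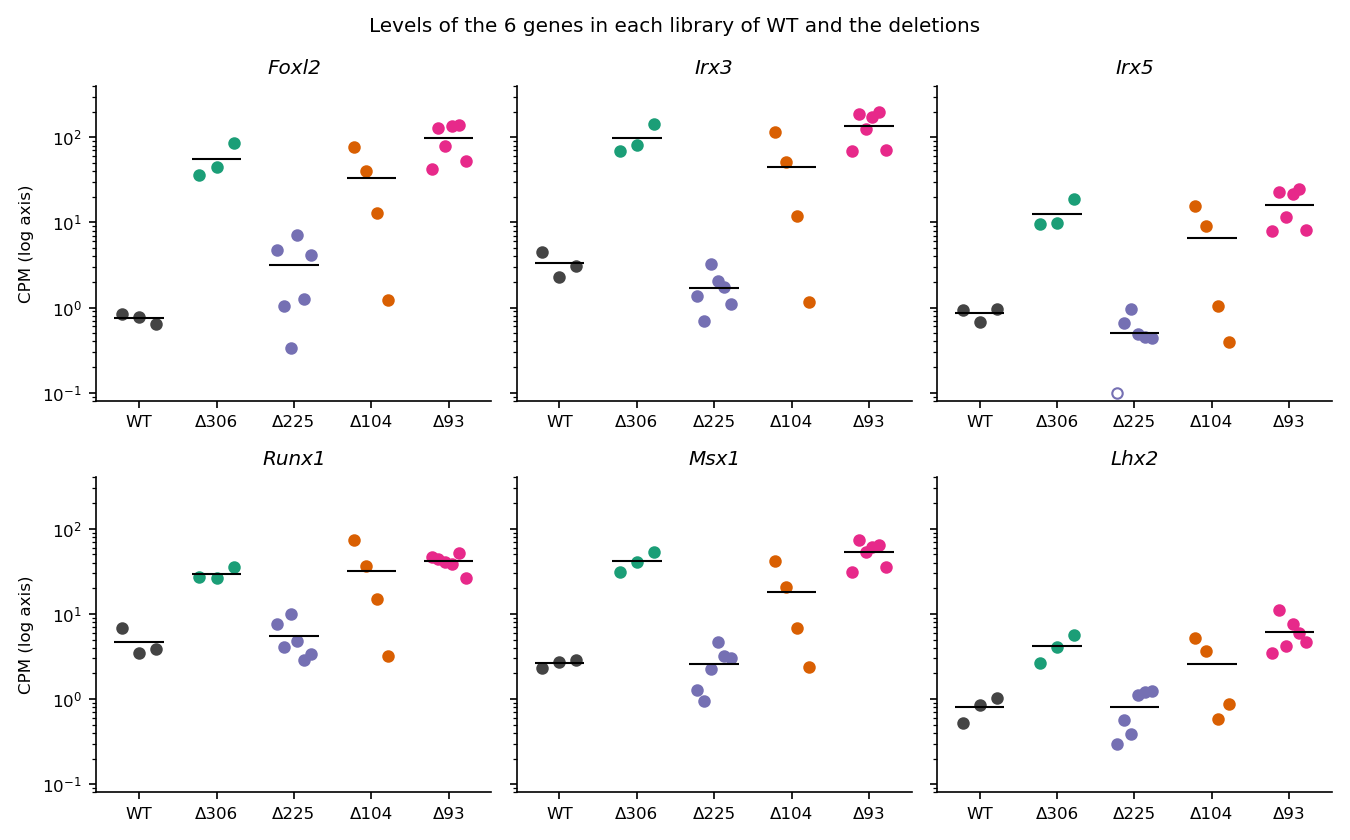
CPM on a log axis of Foxl2, Irx3, Irx5, Runx1, Msx1 and Lhx2 in each library of WT and the 4 deletions, with 1 point per library and a bar at the group mean. Every Δ306 and Δ93 point lies above every WT point in all 6 panels, the Δ104 points are spread over both ranges, and the open point is the Δ225 library with 0 counts of Irx5, drawn at the foot of the axis.

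Foxl2 was nearly silent in WT, at 0.829, 0.777 and 0.633 CPM, which rests on 97 reads over the 3 libraries. In Δ306 it was at 36.5, 45.0 and 85.7 CPM. In Δ93 the lowest library had 42.5 CPM, the median was 105 and the highest had 141. Neither group overlapped WT. The log2 fold change was 6.21 in Δ306 (SE 1.14, adjusted p 0.00541, edgeR's quasi-likelihood test) and 7.01 in Δ93 (SE 1.15, adjusted p 9.92e-04), about 74.2-fold and 129-fold. It ranked 20th and 21st from the top by fold change among the 22941 genes tested. Foxl2os, its antisense neighbour, was at 0.369 to 0.524 CPM in WT, 7.07 to 18.0 in Δ306 and 8.27 to 22.1 in Δ93, and was called in both, by 4.91 and 4.97 log2 units.

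Irx3 had the highest level per kilobase of the 6 genes in WT, at 1.19 ± 0.415 CPM per kilobase of exon (SD, n = 3), and in Δ93, at 49.6 ± 20.7 (n = 6). It was at 4.52, 2.25 and 3.11 CPM in WT and 69.7, 80.9 and 144 CPM in Δ306. In Δ93 it lay between 68.4 and 197 CPM, with a median of 149. The log2 fold change was 4.90 in Δ306 (SE 0.97, adjusted p 0.00712) and 5.38 in Δ93 (SE 0.95, adjusted p 0.0015, both by edgeR). Irx5, its neighbour on chromosome 8, was at 0.929, 0.680 and 0.950 CPM in WT and 9.48, 9.84 and 18.7 CPM in Δ306. Its Δ93 libraries lay between 7.97 and 24.4 CPM, with a median of 16.5. Both Iroquois genes thus kept WT apart from Δ306 and Δ93. The change of Irx5 was 3.89 in Δ306 (SE 0.93, adjusted p 0.0175) and 4.24 in Δ93 (SE 0.90, adjusted p 0.00435). Per kilobase Irx5 stayed lower than Irx3, with 5.14 ± 2.48 CPM in Δ93 (SD, n = 6). Of the 5 other Iroquois entries (Irx1, Irx2, Irx4, Irx6 and Irx3os), Irx3os was called higher in Δ306 (by 5.41) and in Δ93 (by 5.94), and Irx2 was called higher in Δ93 (by 2.31) but did not differ between Δ93 and Δ306 by the test (0.49, adjusted p 0.846).

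Runx1 was detected in every WT library, at 6.88, 3.44 and 3.85 CPM. It reached 27.2, 26.3 and 35.1 CPM in Δ306 and 26.1 to 51.8 CPM in Δ93, with a median of 42.0. The groups did not overlap, and the log2 fold change was 2.64 in Δ306 (SE 0.67, adjusted p 0.0244) and 3.13 in Δ93 (SE 0.65, adjusted p 0.00369, edgeR). Its relatives Runx2 and Runx3 were not called in any deletion against WT, and its partner Cbfb was called lower in Δ93, by 0.46 on the log2 scale (log2 fold change −0.46, adjusted p 0.0453). Runx1 is also known from blood and endothelium. None of 7 blood and macrophage genes was called in any deletion against WT. Their summed level was 5298 to 6509 CPM in WT, 4606 to 9068 in Δ306 and 2177 to 26163 in Δ93. It was 1235 to 8751 CPM in Δ225 and 5973 to 13040 in Δ104. Of 5 endothelial genes, Cdh5 was called lower in Δ306 (−1.14), and Cdh5 and Tek in Δ93 (−0.98 and −0.96). The part of blood and endothelial cells in the change of Runx1 was not tested.

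Msx1 was at 2.34, 2.76 and 2.88 CPM in WT and 31.2, 40.5 and 53.9 CPM in Δ306. Its Δ93 libraries lay between 31.0 and 73.5 CPM, with a median of 56.7. Every Δ306 and Δ93 library was above every WT library, and its changes of 3.98 in Δ306 (SE 0.72, adjusted p 0.00526) and 4.32 in Δ93 (SE 0.70, adjusted p 9.13e-04) had the smallest adjusted p of the 6 genes in both. Its relatives Msx2 and Msx3 were called higher in both as well, Msx2 by 3.08 and 3.70 and Msx3 by 4.66 and 4.33. Of 5 meiotic genes, Stra8 and Rec8 rose in Δ306, and all 5 rose in Δ93, Stra8 by 8.78, Rec8 by 5.04 and Sycp3 by 4.82. Their summed level was 9.50 to 29.3 CPM in WT, 115 to 283 in Δ306 and 180 to 1014 in Δ93. It was 15.2 to 188 CPM in Δ225 and 16.6 to 236 in Δ104, where none of the 5 was called against WT. The part of the meiotic genes in the changes of the 6 genes was not tested.

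Lhx2 was the lowest of the 6 per kilobase in WT, Δ306, Δ104 and Δ93. It was at 0.528, 0.855 and 1.03 CPM in WT, 2.68, 4.10 and 5.69 CPM in Δ306, and 3.49 to 11.2 CPM in Δ93, with a median of 5.29. These groups did not overlap, although the step was the smallest of the 6, with 2.37 in Δ306 (SE 0.68, adjusted p 0.0407) and 2.94 in Δ93 (SE 0.65, adjusted p 0.00542, edgeR). None of the 5 LIM-homeobox relatives Lhx1, Lhx6, Lhx8, Lhx9 and Lmx1b was called in any deletion against WT or in Meis1 KO.

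In all, 6 of 6 genes were called higher in Δ306, beside 2.96% of all genes tested, and 6 of 6 in Δ93, beside 7.23%. Their median log2 fold change was 3.93 in Δ306 and 4.28 in Δ93, where the median of all genes was 0.08 and 0.06. All libraries lay above all WT libraries for 6 of 6 genes in both, which held for 19.2% of all genes in Δ306 and 12.1% in Δ93. Both comparisons use the same WT libraries. In Δ306 only Foxl2, Irx3 and Msx1 stayed called when any WT library or Δ306 replicate 3 was left out, a count of 3. Over the 6 fits that left out 1 library, Irx5 lost its call in 4, and Runx1 and Lhx2 in 5 each. The Δ306 count was 0 without the libraries low in Y-linked genes, beside 0.0352% of all genes called higher, with changes of 2.04 to 5.72. In Δ93 the count was 6 without any single library, and 0 without the low libraries, which leaves 2 Δ93 libraries, beside 0.0264% of all genes called higher, with changes of 3.15 to 6.79 and adjusted p of 0.0512 to 0.0705.

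**Figure D2:**
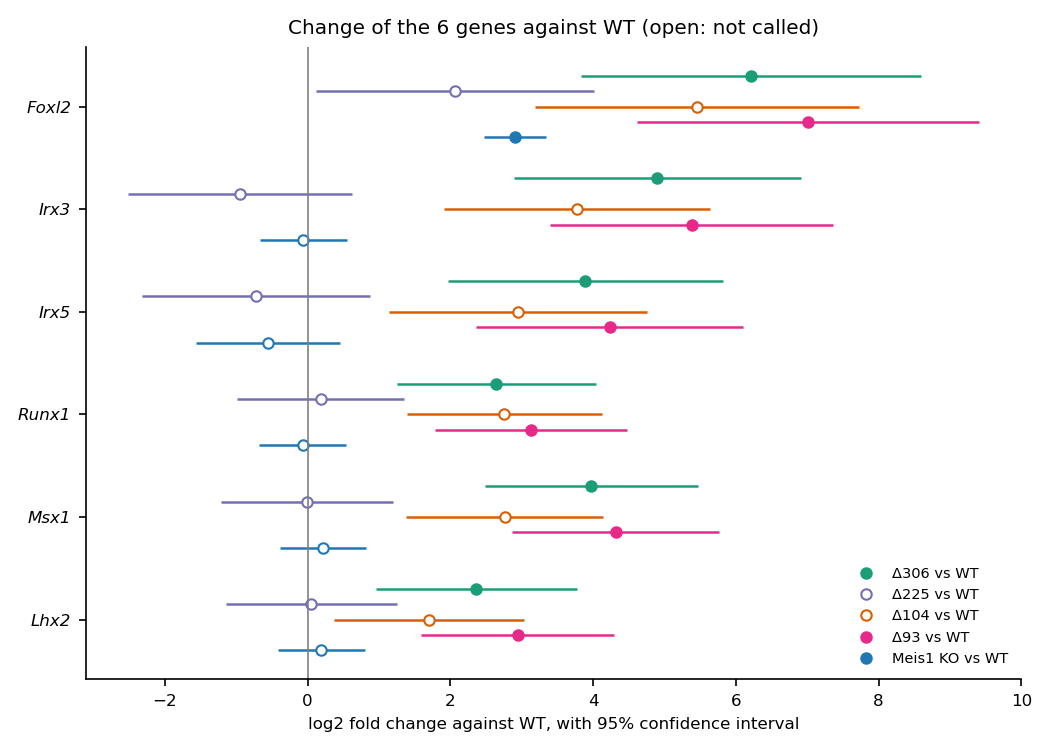
Log2 fold change against WT with its 95% confidence interval (edgeR) for the 6 genes, in the 4 deletions and in Meis1 KO. Filled points were called at an adjusted p under 0.05 and open points were not, and the Δ306 and Δ93 points lie between 2.37 and 7.01 while those of Δ225 lie between −0.95 and 2.06.

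In Δ225 none of the 6 genes passed the test against WT, and Foxl2 had the largest change, 2.06 on the log2 scale. None was called by edgeR, beside 0.209% of all genes, DESeq2 called 0 as well, and 1 of 6, Foxl2, had an unadjusted p under 0.05 (0.0390), as did 16.1% of all genes. The median log2 fold change was 0.02, against 0.04 over all genes. Foxl2 was at 4.78, 1.04, 0.339, 7.19, 1.27 and 4.13 CPM in replicates 1 to 6, so 5 of the 6 libraries exceeded every WT library and replicate 3 lay under all of them. The SE of its fitted change was 0.94 (95% interval 0.11 to 4.01, adjusted p 0.291). The highest of these libraries, replicate 4, is the one with 0.192 CPM of Y-linked genes, and the lowest, replicate 3, is the one with 16.5 CPM of Fgf9.

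The other 5 genes overlapped WT in Δ225. Irx3 lay between 0.694 and 3.24 CPM with a median of 1.55, and its change was −0.95 (95% interval −2.51 to 0.62). Irx5 had 0 counts in replicate 1, the shallowest library, which allows up to 0.259 CPM by a floor of 3 counts, and lay between 0.439 and 0.967 CPM in the other 5. Its change was −0.72 (95% interval −2.32 to 0.88). Runx1 lay between 2.86 and 9.87 CPM, Msx1 between 0.955 and 4.68, and Lhx2 between 0.293 and 1.25. Their changes were 0.18 (95% interval −0.99 to 1.36), −0.01 (−1.21 to 1.19) and 0.05 (−1.14 to 1.25). These intervals are wide, and each lies below the change estimated for the same gene in Δ306. Without the 7 libraries low in Y-linked genes the count was again 0, as it was over all genes (0%), with changes of −1.04 to 1.56.

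The contrast between Δ225 and the other deletions was tested directly. All 6 genes were lower in Δ225 than in Δ306, beside 6.74% of all genes called lower, with changes from −5.85 (Irx3, SE 0.76, adjusted p 2.62e-04) to −2.31 (Lhx2, SE 0.54, adjusted p 0.00875). All 6 were lower than in Δ93 too, beside 10.8% of all genes, from −6.33 (Irx3, SE 0.74, adjusted p 2.49e-05) to −2.89 (Lhx2, SE 0.49, adjusted p 3.80e-04). Against Δ104, 5 were lower, beside 0.619% of all genes, by −4.72 (Irx3) to −2.58 (Runx1), and Lhx2 was not called (−1.64, adjusted p 0.178, edgeR). Without the libraries low in Y-linked genes the changes were of like size. They ran from −5.51 to −2.12 against Δ306, from −6.27 to −3.02 against Δ93 and from −5.10 to −2.07 against Δ104. With fewer libraries the counts called lower were 3 (Irx3, Irx5 and Msx1), 6 and 0, beside 0.563%, 1.46% and 0% of all genes, and the lowest adjusted p against Δ104 was 0.0749. The Δ225 and Δ104 replicate numbers just met the correlation rule for pairing, with a lowest r of 0.10. The number was then a block over all libraries of WT and the deletions, including groups that did not meet the rule. With that block none of the 6 was called between Δ225 and Δ104, and none was in a fit of these 2 groups alone. Leaving out Δ104 replicate 1 gave 1 call, leaving out replicate 2 of that group gave 2, and leaving out Δ225 replicate 2, 5 or 6 gave 3.

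Δ104 was the group whose libraries differed most. Foxl2 was at 77.0, 40.5, 13.0 and 1.22 CPM in replicates 1 to 4. Irx3 was at 115, 51.4, 12.0 and 1.17 CPM, Irx5 at 15.7, 9.04, 1.05 and 0.389, Runx1 at 73.0, 36.3, 14.9 and 3.21, and Msx1 at 41.9, 20.5, 6.92 and 2.38. Lhx2 was at 5.25, 3.64, 0.581 and 0.876 CPM. Replicate 1 was thus the highest for all 6 genes and replicate 4 the lowest for 5, with the same order of all 4 libraries in 5 of 6 genes. Replicate 1 had more Runx1 than any Δ306 or Δ93 library. Replicate 4 was below every WT library for Irx3, Irx5 and Runx1, within the WT range for Msx1 and Lhx2, and above it for Foxl2. Foxl2 was accordingly the 1 gene of 6 for which all Δ104 libraries exceeded all WT libraries, which held for 8.68% of all genes.

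The Sertoli product Amh ran the other way over these libraries, at 0.361, 155, 489 and 1166 CPM in replicates 1 to 4, against 1263 to 1685 in WT. Sox9 was at 11.6, 57.8, 116 and 88.9 CPM and Fgf9 at 2.72, 5.16, 6.98 and 4.52. The summed Y-linked level was 5.29, 5.56, 1.89 and 35.8 CPM, so the library nearest WT in the 6 genes also had a Y-linked level in the WT range. Its part in the result was not tested. In Δ225, where none of the 6 genes was called against WT, Amh was also under the WT range in 4 libraries. Replicates 1, 2, 3 and 6 had 58.7, 405, 311 and 1110 CPM of Amh, and replicates 4 and 5 had 1352 and 1440.

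**Figure D3:**
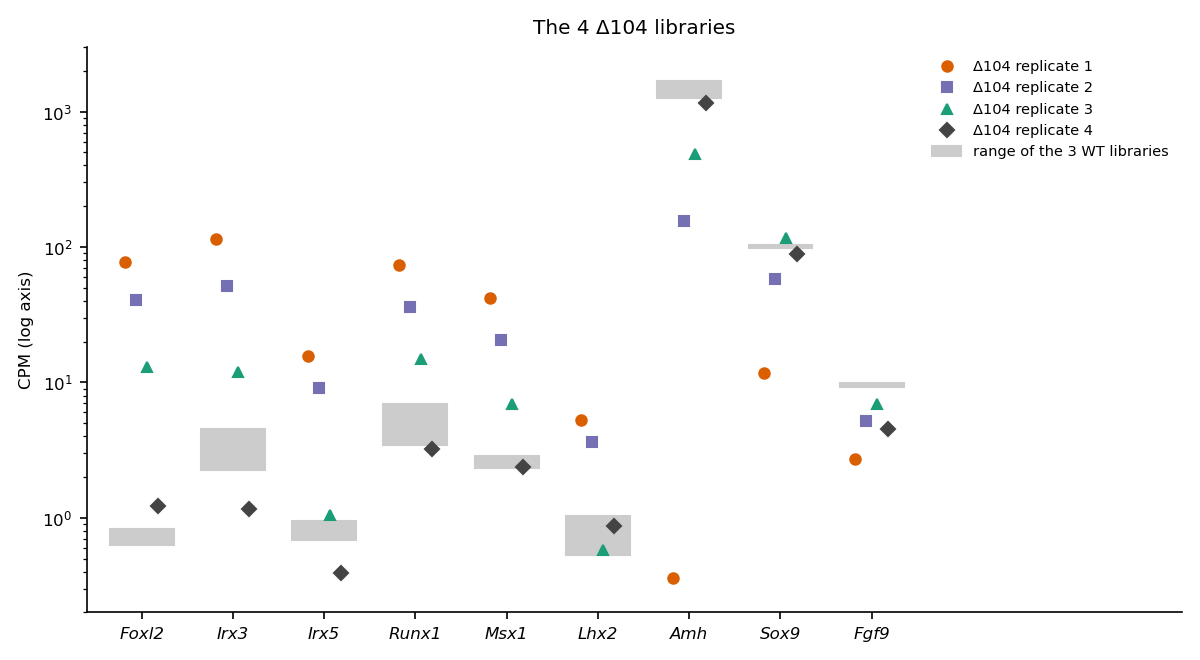
CPM on a log axis of the 6 genes and of Amh, Sox9 and Fgf9 in the 4 Δ104 libraries, with a grey band for the range of the 3 WT libraries. Replicate 1 is highest for each of the 6 genes and lowest for Amh, Sox9 and Fgf9, and replicate 4 lies within or below the WT band for 5 of the 6 genes and just above it for Foxl2.

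Against WT, none of the 6 genes was called in Δ104 by edgeR, beside 0.061% of all genes called, while all 6 had an unadjusted p under 0.05 (15.7% of all genes did) and DESeq2 called 5 higher, all but Lhx2, beside 1.98% of all genes. The changes were 5.46 for Foxl2 (SE 1.09, adjusted p 0.0621), 3.78 for Irx3, 2.76 for Runx1 and 2.76 for Msx1 (adjusted p 0.0809 each), 2.95 for Irx5 (adjusted p 0.144) and 1.70 for Lhx2 (adjusted p 0.236). Their median was 2.86 against 0.06 over all genes. With replicate 4 left out, 5 genes were called higher, all but Lhx2, beside 1.86% of all genes. With replicate 3 left out, the library low in Y-linked genes, Foxl2 was called higher, beside 0.307%. Without all 7 low libraries none of the 6 was called, nor was any other gene, and the changes were 1.99 to 5.69.

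The 3 deletions with high libraries were not told apart. By edgeR, 0 of 6 genes were called between Δ104 and Δ306 (beside 0.0654% of all genes), 0 between Δ93 and Δ306 (0.0785%) and 0 between Δ93 and Δ104 (0.0523%), and DESeq2 gave 0 in each. The genes with an unadjusted p under 0.05 numbered 0, 0 and 4, beside 11.1%, 9% and 14.5% of all genes. For Foxl2 the 95% intervals were −2.47 to 0.96 for Δ104 against Δ306, −0.85 to 2.45 for Δ93 against Δ306, and 0.02 to 3.09 for Δ93 against Δ104. Without Δ104 replicate 1, Irx3 and Msx1 were called higher in Δ93 than in Δ104, beside 1.05% of all genes. Without the 7 libraries low in Y-linked genes, 0 of 6 were called in each of these comparisons, beside 0%, 0.0088% and 0.0088% of all genes. The changes were then −0.72 to 0.50 for Δ104 against Δ306, 0.54 to 1.11 for Δ93 against Δ306 and 0.26 to 1.25 for Δ93 against Δ104.

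The 6 genes shared their highest library in Δ306 and in Δ104. In Δ306, replicate 3 was the highest for 6 of 6 genes and had 0.147 CPM of Y-linked genes, against 11.7 and 12.4 in the others. In Δ93, replicate 5 was the highest for 4 genes and replicate 1 the lowest for 5, with 0.209 and 6.78 CPM of Y-linked genes. In WT and in Δ225 no library was the highest for more than 3 of the 6 genes, and in Δ225 no 2 genes had the same order of libraries. As a description over 22 libraries that share groups and depth, Pearson's r of log2 CPM ran from 0.80 to 0.98 (median 0.91) over the 15 pairs of these genes. With each group's mean subtracted it ran from 0.32 to 0.90 (median 0.72).

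**Figure D4:**
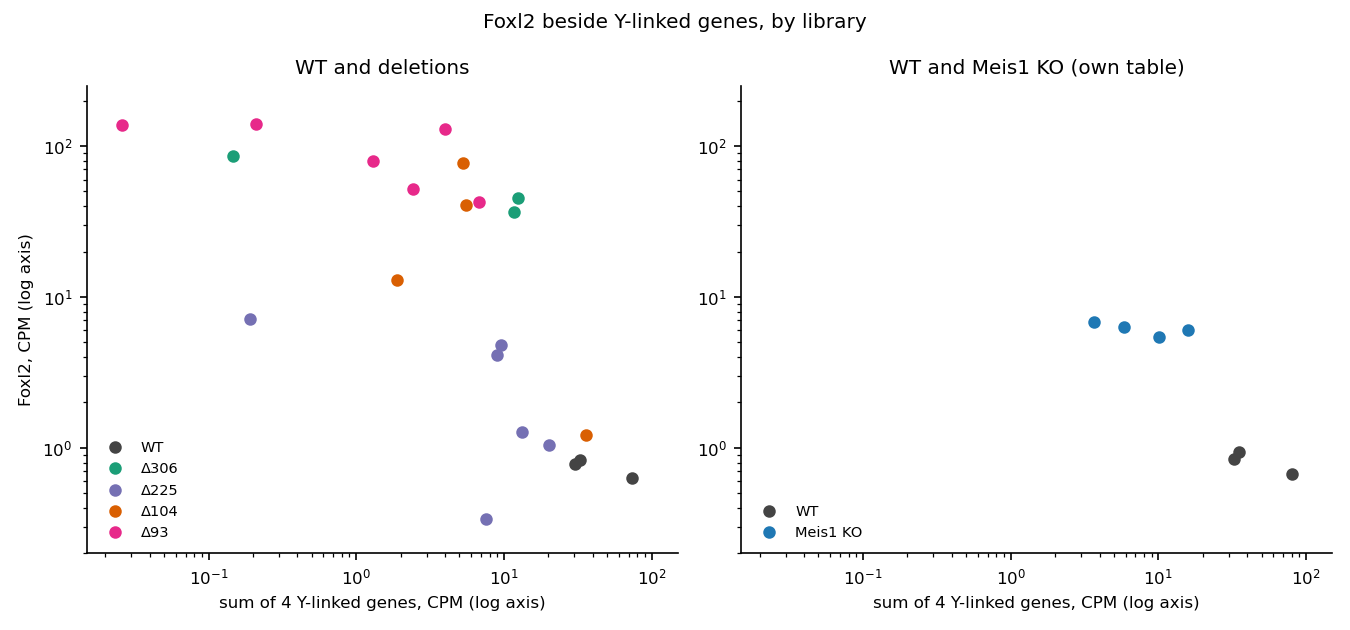
Foxl2 CPM against the summed CPM of 4 Y-linked genes, both on log axes, with 1 point per library, for WT and the deletions (left) and for WT and Meis1 KO (right). The 3 WT points lie at the lower right in both panels, Δ104 replicate 4 (35.8 CPM of Y-linked genes, 1.22 CPM of Foxl2) lies beside them, and Δ225 replicate 4 (0.192 and 7.19 CPM) has a low Y-linked sum without a Foxl2 level in the range of Δ306 and Δ93.

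The genes whose log2 CPM was most like each of the 6 over the 22 libraries were named by a ranking of Pearson's r. For Foxl2 they were Akr1c14, Rspo1, Dmrta1, Gdpd2 and Adamts19 (r of 0.97 to 0.98), and Rspo1 is the secreted amplifier of WNT signalling named above. For Irx3 they were Tnfrsf19, Chrm4, Kcnq1, Csgalnact1 and Isx (0.98 to 0.99), and for Irx5 Insyn2b, Cacna1i, Klhdc7a, Irx3os and Abca4 (0.97 to 0.99). For Runx1 they were Gxylt2, D630039A03Rik, Dclk1, Arhgap29 and Colec12 (0.97 to 0.99). Msx1 was most like Rnf128, Chrm4, Tnfrsf19, Dcaf12l1 and Irx3 (0.98 each), so Chrm4 and Tnfrsf19 stood in the lists of both Irx3 and Msx1. Lhx2 was most like Trnp1, Lhpp, Rec8, Sp5 and Fam83g (0.96 to 0.97), and Rec8 is a meiotic cohesin. The most opposed genes were Sel1l3, Nes and Prickle1 for Foxl2 (−0.92 to −0.91), Jam2, Slc6a15 and Enc1 for Irx3 (−0.95), and Stc1, Arhgap6 and Enpp6 for Irx5 (−0.96 to −0.95). They were Col13a1, Igfbp7 and Gsta3 for Runx1 (−0.95 to −0.94), Arhgap6, Slc6a15 and Jag1 for Msx1 (−0.95), and Tshz3, Nr2f2 and Klf6 for Lhx2 (−0.95).

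Other genes of the fetal ovary, most of them pre-granulosa or WNT genes, were followed as a list of 12 (Wnt4, Rspo1, Fst, Bmp2, Lgr5, Gng13, Axin2, Nkd1, Lef1, Esr2, Emx2 and Nr2f2). Nr2f2 is not particular to pre-granulosa cells and was at 266 to 327 CPM in WT. Emx2 is also counted among the gonadal somatic genes below. In Δ306, 5 rose and Esr2 fell (−2.04), and in Δ93, 10 rose and 2 fell, Esr2 (−1.40) and Nr2f2 (−1.11). Their median log2 fold change was 1.17 in Δ306 and 1.52 in Δ93. The largest rise was that of Fst, an activin antagonist, with 6.49 in Δ306 and 7.02 in Δ93. Gng13 rose by 3.87 and 4.49, and Wnt4 rose by 2.31 in Δ93. None of the 12 was called in Δ225, Δ104 or Meis1 KO by edgeR, with medians of 0.14, 1.11 and 0.19. In Δ225 the 12 changes ran from −0.60 to 1.89, and Fst was at 2.17 to 14.6 CPM against 1.01 to 1.69 in WT.

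Markers of other cell types were counted beside these changes. Of 10 Sertoli genes, Fgf9 fell in Δ306 (−1.94), and Ptgds (−3.52), Sox8 (−2.66) and Fgf9 (−1.63) fell in Δ93. Fgf9 is the gene at which the deletions were made, so its fall is not a separate Sertoli result. Called or not, the changes of the 10 ran from −3.81 to −0.31 in Δ306 and from −3.98 to −0.19 in Δ93. The summed level of the 10 was 2585 to 2946 CPM in WT, 463 to 817 in Δ306 and 504 to 1327 in Δ93. Of 5 gonadal somatic genes, Emx2 rose in Δ306 (1.29), and Emx2 (1.44) and Wt1 (0.59) in Δ93. None of 5 germ cell genes was called in any deletion. Of 6 mesonephric genes, none was called in Δ306, and Pax8 rose (1.54) and Wnt9b fell (−4.46) in Δ93. The summed mesonephric level was 13.7 to 28.5 CPM in WT, 31.1 to 58.4 in Δ306 and 30.9 to 58.4 in Δ93. It was 21.4 to 36.4 CPM in Δ225 and 14.4 to 48.3 in Δ104. Its part in the changes of the 6 genes was not tested. All 4 Y-linked genes fell in Δ93, by 3.94 to 5.02 on the log2 scale, and none was called in Δ306. In bulk tissue, fewer cells of a type and less RNA per cell cannot be told apart.

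Meis1 encodes a TALE homeobox factor, and its knockout asked what the XY gonad does without it. Meis1 itself was at 109, 62.1 and 64.2 CPM in WT and at 0.201 to 0.695 CPM in the 4 Meis1 KO libraries. Foxl2 rose. It was at 0.946, 0.845 and 0.672 CPM in the WT libraries of this table and at 5.46, 6.86, 6.02 and 6.29 CPM in the KO libraries. The groups did not overlap, and the KO libraries varied little, at 6.16 ± 0.581 CPM (SD, n = 4) against 0.821 ± 0.138 CPM in WT (n = 3). The log2 fold change was 2.90 (SE 0.19, 95% interval 2.47 to 3.33, adjusted p 7.53e-04, edgeR), or 7.47-fold. Foxl2 ranked 13th by fold change and 5th by p among 16791 genes, and 10th by fold change among the genes called higher. Leaving out each library in turn gave 2.77 to 3.01, with Foxl2 called each time.

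The other 5 genes did not follow Foxl2 in Meis1 KO. Thus 1 of 6 genes was called higher, beside 1.27% of all genes, and all KO libraries lay above all WT libraries for 1 of 6, which held for 12.3% of all genes. Irx3 was at 5.32, 2.64 and 3.47 CPM in WT and 3.39, 3.14, 4.76 and 3.31 in KO, a change of −0.06 (95% interval −0.67 to 0.55). Irx5 was at 1.00, 0.761 and 1.01 CPM in WT and 0.357, 0.408, 1.21 and 0.515 in KO, a change of −0.55 (−1.56 to 0.46). The WT and KO libraries of both Iroquois genes overlapped. Runx1 had 8.21, 3.85 and 4.12 CPM in WT and 4.58 to 5.50 in KO, with a change of −0.07 (−0.68 to 0.54). Msx1 was at 2.30, 2.94 and 3.05 CPM in WT and 2.16, 2.69, 3.72 and 4.29 in KO, a change of 0.22 (−0.38 to 0.82). Lhx2 was at 0.567, 0.930 and 1.09 CPM in WT, its KO libraries lay inside that range at 0.935 to 1.05, and its change was 0.19 (−0.42 to 0.81). All 5 intervals exclude the 2.90 of Foxl2, and their upper bounds lie at 0.82 or below. Some directions rested on WT replicate 1, the WT library low in Ddx4. Without it Runx1 changed by 0.37 (adjusted p 0.141, edgeR), Irx3 by 0.27 (adjusted p 0.467) and Lhx2 by −0.026 (adjusted p 0.956).

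**Figure D5:**
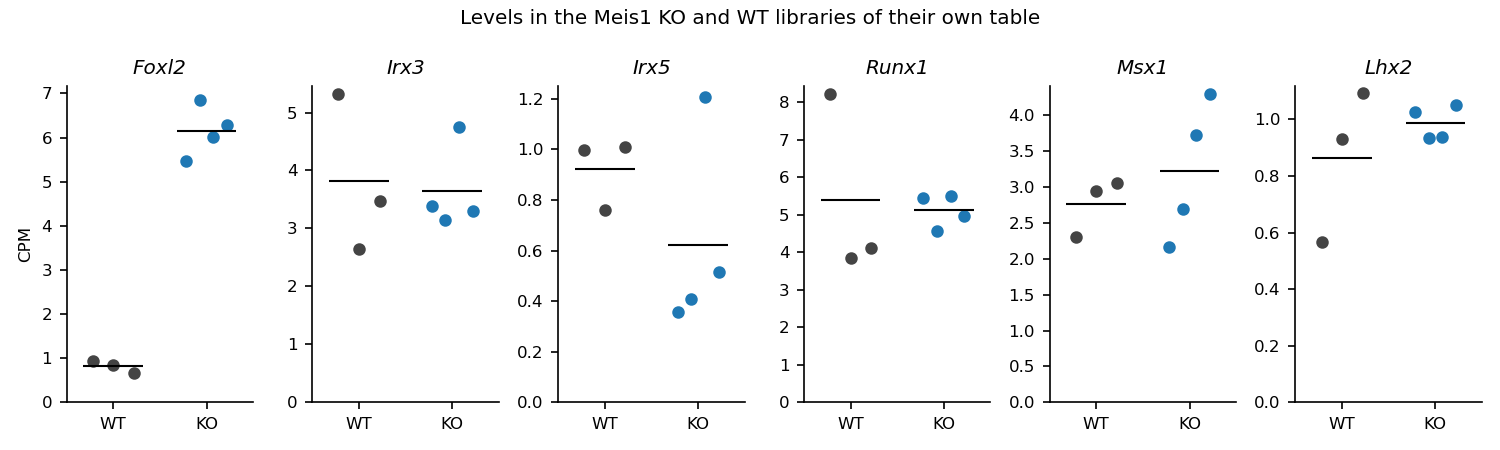
CPM of the 6 genes in the 3 WT and 4 Meis1 KO libraries of the Meis1 table, with 1 point per library and a bar at the mean, on axes that start at 0 and differ between panels. The Foxl2 points of KO lie at 5.46 to 6.86 CPM above WT points at 0.672 to 0.946, while WT and KO points overlap in the other 5 panels.

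Per kilobase of exon, Foxl2 was the fifth of the 6 genes in WT, at 0.252 ± 0.0425 CPM (SD, n = 3), and the first in Meis1 KO, at 1.89 ± 0.179 (n = 4). The 2 tables were normalized separately, so levels across them are set side by side only. Foxl2 was at 36.5 to 85.7 CPM in Δ306 and 42.5 to 141 in Δ93 in the other table, and Δ225 replicates 1, 4 and 6, at 4.13 to 7.19 CPM, lay nearest to the KO level. The KO and the deletions were both set against the same WT samples.

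In Meis1 KO the Sertoli genes stayed uncalled (0 of 10), with a summed level of 2180 to 2675 CPM against 2807 to 3197 in WT. Fst was at 1.41, 1.12 and 1.74 CPM in WT and 1.48 to 2.26 in KO (0.40, adjusted p 0.407), and Rspo1 changed by 0.38 (adjusted p 0.171, edgeR). None of the 5 germ cell genes and none of 4 meiotic genes tested was called. Of the Y-linked genes Uty was called lower (−3.46), and the summed Y-linked level was 32.5 to 80.1 CPM in WT and 3.66 to 15.9 in KO, with no overlap. Of the 7 blood genes Hba-a1, an α-globin, was called lower. The part of the Y-linked level in the Foxl2 change was not tested, and no KO library fell under 0.1 times the lowest WT library. The Meis1 counts hold no row for Foxl2os, so its level could not be set beside that of Foxl2 there.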

How the data were processed

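The deposited values are raw read counts per gene, made by the authors with STAR (2.7.10a for WT and Δ306), featureCounts and the mm10 build, per the submitters' processing notes; counting tools for the other groups are not given in the sources used here. Symbols came from a deposited comparison table, whose values were not used, and gene models from GENCODE M21. The test was the quasi-likelihood test of edgeR (version 4.0.16, R version 4.3.3) after filterByExpr and TMM, adjusted by Benjamini-Hochberg over all genes and called at an adjusted p under 0.05. One fit held the 22 libraries of WT and the deletions (22941 genes, 17 residual degrees of freedom), and the Meis1 table had its own (16791 genes, 5). The standard error is the log2 fold change over the square root of F. Tested on simulated data for Δ93 against WT (22038 genes), the fit called 30% of 100 genes changed by 1 log2 unit, 100% of 100 changed by 3 and 0.0275% of unchanged genes. For Meis1 KO against WT (16882 genes) it called 22%, 100% and 0.018%. The simulated counts gave every gene the same spread between replicates, unlike these libraries. These shares check that the fit recovers known changes and do not give its power or error rate in the real data.

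Replicate numbers were taken to pair samples where deviations from group means correlated above 0.1 in every pair: this held for Δ104 and Δ225 (0.10 to 0.34 over 4 pairs) and for no other pair of groups (−0.50 to 0.51 over all pairs). No label says that equal numbers match samples across groups. The replicate block was put on all groups of a fit at once, so it is not a paired test of Δ104 and Δ225. The members and gene lists, the motifs and the ranking by Pearson's r of log2 CPM (prior count 2), which names 5 alike and 3 opposed genes per member, were chosen with earlier results of these data known. From each list at most the 3 largest called changes per comparison are named, with the others only counted. Outside that rule, Esr2 and Nr2f2 in Δ93, Fst in Δ225, and Fst and Rspo1 in Meis1 KO were named after their values were seen. So were Foxl2os, Irx2 between deletions, and Amh, Sox9, Ddx4 and Pax2 in single libraries. DESeq2 1.42.0, RLE scaling, no filter, other thresholds, a replicate block, pairwise fits and left-out libraries were the alternatives. Intervals of the floor cover counting error only.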

Additional observations from a re-analysis of the deposited data

Results flagged for a closer look

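Among 24 combinations of a gene and a group of 4 to 10 libraries, 1 had a library far from the others by Dixon's rule at 95%, where chance flags about 1 in 20. Irx3 in Meis1 KO replicate 3 was at 4.76 CPM, while the other 3 KO libraries lay between 3.14 and 3.39 CPM, a gap of 0.848 of the group's whole range. That library lay within the WT range of 2.64 to 5.32 CPM.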

How the results depend on the processing

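Of 11 comparisons, the count of the 6 genes called was within 1.5 times of its value under every alternative run for Δ225 against WT, Δ225 against Δ93, Δ104 against Δ306, Δ93 against Δ306 and Meis1 KO against WT. An adjusted p under 0.01 gave 3 for Δ306 against WT and 1 for Δ225 against Δ104. Without the libraries low in Y-linked genes, which leaves fewer samples, the count was 0 for Δ306 against WT, 0 for Δ93 against WT, 3 for Δ225 against Δ306 and 0 for Δ225 against Δ104. For Δ104 against WT it was 5 with DESeq2, 1 with no filter and 2 with the replicate block. For Δ225 against Δ104 it was 0 with the replicate block and 0 in a fit of those groups alone. The block moved no other count by over 1.5 times, though Lhx2 was not called with it in Δ306. Leaving out 1 library gave 3 to 6 for Δ306 against WT, 0 to 5 for Δ104 against WT, 5 to 6 for Δ225 against Δ306, 1 to 5 for Δ225 against Δ104 and 0 to 2 for Δ93 against Δ104. The cause was not tested.

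Direction reversed only for changes near 0 that were not called. In Δ225 against WT, Msx1 was 0.0054 with RLE scaling, and Lhx2 was −0.19 with the block and −0.0827 without the low libraries. In Meis1 KO, Irx3 was 0.017 and Runx1 0.024 with the block. Left-out libraries gave −0.073 to 0.54 for Runx1, −0.27 to 0.16 for Msx1 and −0.16 to 0.27 for Lhx2 in Δ225 against WT. They gave −0.71 to 0.49 for Runx1 between Δ104 and Δ306, and −0.0087 to 1.21 between Δ93 and Δ104. In Meis1 KO they gave −0.28 to 0.27 for Irx3, −0.28 to 0.37 for Runx1 and −0.026 to 0.39 for Lhx2. Over the other settings of single genes, 914 results kept direction and call, 68 lost the call and 16 gained one.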
